A study of Mus musculus with 6 samples.

Results

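The genes described here are 9 targets of the tumour suppressor p53 or triggers of apoptosis, chosen by symbol from a named list: Cdkn1a, Mdm2, Ccng1, Phlda3, Trp53inp1, Bax, Bbc3, Pmaip1 and Bcl2l11. All 9 were found, each on 1 row, among the 21827 genes listed for every library. They were measured by sequencing of polyadenylated RNA in 6 mouse embryos at E10.75, each giving 1 library from its distal mandible (the far end of the developing lower jaw). By their labels, the 3 mutant embryos are Msx1f/f, with both copies floxed, and the 3 control embryos Msx1f/+, with a single floxed copy; the Msx1 level went against these labels in 4 of the 6 libraries. Embryos of both labels are given as Msx2f/f with Rosa26mTmG/+ and Hand2-Cre. Each of 3 litters gave 1 embryo of each label. The mTmG reporter turns recombined cells green. With Msx2 floxed on both copies throughout, no embryo has intact Msx genes by its label. Hand2-Cre is driven by regulatory sequence of Hand2, which is active in distal arch mesenchyme, and the dissected tissue was not sorted, so cells without recombination can be in each library.

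p53 is a transcription factor that is held at a low level by Mdm2 and Mdm4 and accumulates after DNA damage or ribosome stress. Its targets stop the cell cycle, feed back on p53 itself, or open the mitochondrial path to cell death through the BCL2 family, in which BH3-only proteins release the pore-former Bax from survival proteins such as Mcl1. Neural crest cells, which build the facial mesenchyme, are sensitive to p53: excess p53 activity in mouse embryos leads to crest cell death and small jaws.

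Msx1 is the homeobox gene whose floxed dose separates the labels. In litter 1 the mutant-labelled embryo had 1.90 TPM and the control-labelled embryo 84.1 TPM. The low value carried the control label in litter 2 (2.61 TPM, against 78.8 TPM under the mutant label) and in litter 3 (1.99 TPM, against 73.3 TPM). TPM is transcript abundance per length, scaled to a fixed total. Within each litter the library with Msx1 under 10 TPM is called low-Msx1 below and its littermate with Msx1 over 50 TPM high-Msx1. That split follows a measured value and not the labels, so its differences are given litter by litter as a description, without a test. Tests are given for the labelled groups and copied from the authors' deposited table, in which Msx1 has a log2 fold change of -5.19, so that positive values there belong to genes with more RNA at low Msx1. Each label holds both low-Msx1 and high-Msx1 libraries, so the labelled tests do not compare low with high Msx1.

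Jaw mesenchyme markers were present in all 6 libraries, with Hand2 at 210.0 to 261 TPM, Dlx5 at 204 to 266 TPM and Prrx1 at 140 to 155 TPM. Markers of other cell types were also present. The 14 red blood cell markers summed to 22595 TPM in the low-Msx1 library of litter 1 and to between 6900 and 9747 TPM in the other 5 libraries, while 10 endothelial markers summed to 106 to 125 TPM. Mitochondrially encoded transcripts took 8.03% of the listed TPM in the high-Msx1 library of litter 1, against 6.02% to 6.51% in the other 5. In a piece of tissue, fewer cells of a type and less RNA per cell cannot be told apart. Of 10 genes that respond to dissection, such as Fos and Egr1, 4 averaged 1 TPM or more, and the 10 summed to 61.6 to 78.0 TPM.

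Promoter sequence was at hand for 7 of the 9 genes, as 11 RefSeq windows (build GRCm38.p6) that run from 250 bases before to 50 bases after a transcription start. The sequence pattern that p53 binds is a pair of decamers whose cores read CATG or similar. The letters CATGNNNNNNCATG, which read the same on the opposite strand and set both cores of such a pair at their usual distance, occurred in 0.712% of all 32851 windows of that length and in 1 member window, at the upstream start of Cdkn1a. A decamer that matched the p53 decamer pattern without mismatch, on either strand, occurred in 8.36% of all windows and in windows of Cdkn1a, Mdm2, Ccng1 and Bax. The 2 kinds of match overlap at Cdkn1a. A complete p53 site without mismatch was found in 3 of all windows and in 0 member windows. These matches describe letters and say nothing of binding. The 4 sequences are shown because their windows held a match. The windows of Bbc3, Bcl2l11 and Phlda3 held none and are not shown. All stretches end before the RefSeq start of transcription and read 5′ to 3′ on the gene's strand, with capitals for the paired cores at Cdkn1a and for the decamer in the others.
Cdkn1a, chr17:29090856-29090978, plus strand: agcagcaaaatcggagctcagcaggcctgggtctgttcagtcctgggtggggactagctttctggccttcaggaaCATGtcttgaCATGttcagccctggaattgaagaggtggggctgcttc
Mdm2, chr10:117710905-117710974, minus strand: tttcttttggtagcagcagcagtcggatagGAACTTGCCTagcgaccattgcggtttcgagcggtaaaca
Ccng1, chr11:40755432-40755501, minus strand: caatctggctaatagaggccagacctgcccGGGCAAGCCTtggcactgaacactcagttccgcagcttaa
Bax, chr7:45467060-45467129, minus strand: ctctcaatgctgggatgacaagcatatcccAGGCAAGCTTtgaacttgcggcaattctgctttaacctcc

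The 9 genes spanned more than 100-fold in level and most of them were steady between embryos. Bax was the highest, at 60.1 ± 3.12 TPM (SD, n = 6), followed by Cdkn1a at 41.1 ± 10.66, Mdm2 at 40.3 ± 1.73, Bcl2l11 at 16.8 ± 1.61, Ccng1 at 15.1 ± 1.51, Phlda3 at 5.93 ± 0.809, Trp53inp1 at 3.76 ± 0.525, Bbc3 at 1.08 ± 0.548 and Pmaip1 at 0.476 ± 0.305 TPM. The ranges of neighbours in that order did not overlap except for Cdkn1a with Mdm2, Bcl2l11 with Ccng1, and Bbc3 with Pmaip1. Bcl2l11 was nevertheless above Ccng1 in 6 of 6 libraries, whereas Cdkn1a exceeded Mdm2 in only 2. Bax and Cdkn1a came within a fraction of a TPM of each other, with a lowest value of 55.4 TPM for Bax and a highest of 55.0 TPM for Cdkn1a. All but Pmaip1 reached 1 TPM in at least 3 libraries and entered the test across 12152 genes. Bbc3 did so in exactly 3 and Pmaip1 in 1.

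**Figure D1:**
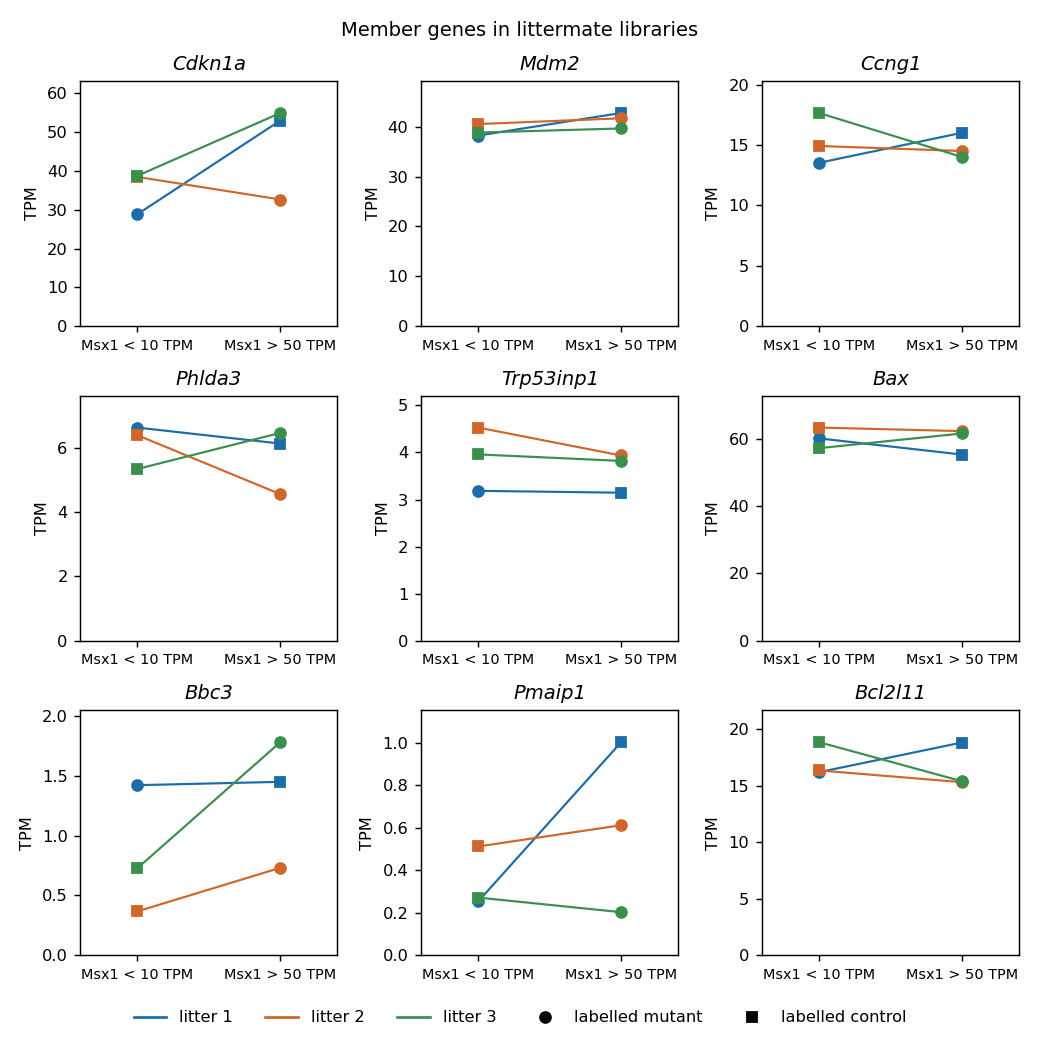
TPM of each of the 9 genes in the low-Msx1 library (left) and the high-Msx1 library (right) of each litter, with littermates joined by a line, circles for libraries labelled mutant and squares for those labelled control; each vertical axis starts at 0. Cdkn1a lines fall apart by litter, from 28.9 to 55.0 TPM over the 6 libraries, while Mdm2 stays between 38.2 and 42.7 TPM.

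Cdkn1a, which encodes the cyclin-dependent kinase inhibitor p21 and is the classical p53 target of cell cycle arrest, was the most variable of the abundant members (chromosome 17, 29090976 to 29100727, GRCm38). It had 28.9, 38.5 and 38.8 TPM in the low-Msx1 libraries of litters 1, 2 and 3, against 53.03, 32.6 and 55.0 TPM in their high-Msx1 littermates. The level was lower in the low-Msx1 library in litters 1 and 3 and higher in litter 2, and the ranges of both sets overlapped. The differences in log2(TPM + 1) were -0.86, 0.23 and -0.49. Its SD of log2(TPM + 1) over the 6 libraries, 0.36, was larger than that of 97.0% of the 3285 tested genes whose mean lay within 1 log2 unit of its own. The lowest value of Cdkn1a fell in the library with the most red blood cell RNA, and the second highest in the library with the largest mitochondrial share. The part of either in the spread was not tested. By the labels, Cdkn1a had 38.8 ± 14.1 TPM in libraries labelled mutant and 43.4 ± 8.32 TPM in those labelled control (SD, n = 3 each). On the log2 scale they differed by -0.20 ± 0.24 (SE; adjusted p = 0.866 with limma), and by -0.47 without the mutant-labelled library of litter 3 and -0.02 without that of litter 1. In the authors' deposited table its log2 fold change was -0.39 ± 0.25 (the table's standard error; unadjusted p = 0.123), the smallest p among the members.

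The genes whose profile over the 6 libraries lay nearest to that of Cdkn1a were Btd, which encodes biotinidase, Reg2 and Pgm1, a phosphoglucomutase gene. The root mean square distance between centred log2(TPM + 1) profiles was 0.10, 0.11 and 0.12, among 8895 genes that averaged 5 TPM or more. The departure of Cdkn1a from its own mean was 0.33 on the same scale. Of the 8895 genes, 3391 lay nearer to Cdkn1a than that, and shared regulation was not tested. Btd, for example, had 4.08, 6.14 and 5.53 TPM in the low-Msx1 libraries of litters 1 to 3 and 7.31, 4.81 and 7.37 TPM in their littermates.

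Mdm2, the ubiquitin ligase that degrades p53 and is itself a p53 target, barely moved (chromosome 10, 117688875 to 117710758). It had 38.2, 40.5 and 38.8 TPM in the low-Msx1 libraries of litters 1, 2 and 3, against 42.7, 41.7 and 39.6 TPM in their littermates. The low-Msx1 library was the lower in 3 of 3 litters, by 0.16, 0.04 and 0.03 on the log2 scale. Between them the 6 libraries differed by at most 1.12-fold, and the SD of log2(TPM + 1), 0.06, was below that of all but 4.93% of 3327 genes of like level. The 2 sets of libraries overlapped. By the labels the log2 value of labelled mutants minus that of labelled controls was -0.03 ± 0.08 (SE; limma adjusted p = 0.941), with a 95% interval from -0.22 to 0.16, and the value changes sign, to 0.04, when libraries are scaled by median of ratios. The authors' deposited table gave -0.08 ± 0.13. The nearest profiles to Mdm2 were those of Appbp2, Ndst1 and Dhx15, at distances of 0.01, 0.01 and 0.02, where the departure of Mdm2 from its own mean was 0.05. Of the 8895 genes compared, 322 lay nearer to Mdm2 than that.

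**Figure D2:**
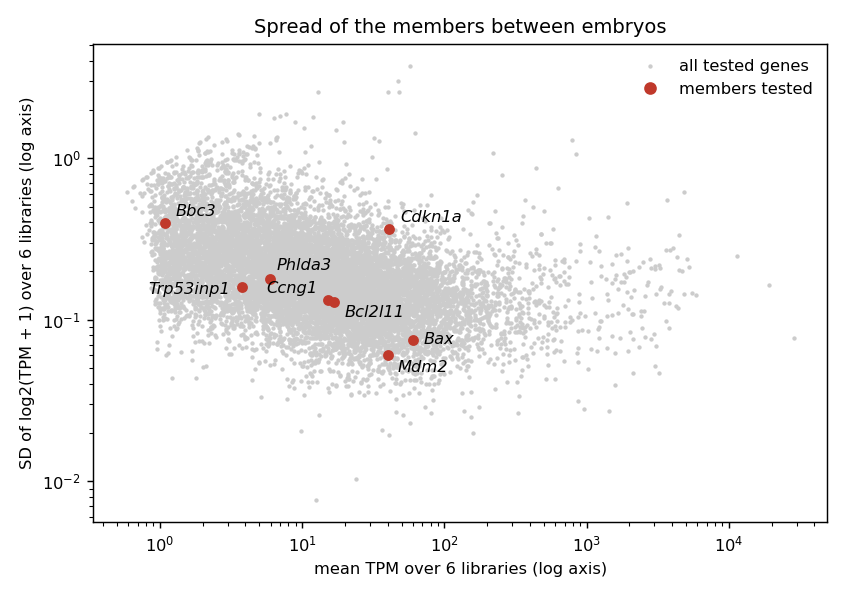
SD of log2(TPM + 1) over the 6 libraries against mean TPM, both on log axes, for 12152 tested genes (grey) and the 8 members among them (red). Cdkn1a, at an SD of 0.36, sits at the upper edge of genes of its level and Mdm2, at 0.06, at the lower edge.

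Ccng1, which encodes cyclin G1, another feedback component of the p53 and Mdm2 circuit, had 13.5, 14.9 and 17.7 TPM in the low-Msx1 libraries and 16.0, 14.5 and 14.0 TPM in the high-Msx1 libraries of litters 1, 2 and 3 (chromosome 11, 40748552 to 40755311). The order of littermates differed between litters 1 and 3. Over all tested genes the median low-minus-high difference was itself -0.09 in litter 1, 0.007 in litter 2 and 0.08 in litter 3, the same signs as for Ccng1, whose differences were -0.23, 0.04 and 0.31. After median-of-ratios scaling those of Ccng1 were smaller but kept their signs, at -0.13, 0.03 and 0.22. Sorted by the labels, the 3 values labelled mutant lay below the 3 labelled control, at 14.0 ± 0.489 and 16.2 ± 1.38 TPM (SD, n = 3 each). On the log2 scale this was -0.19 ± 0.10 (SE; limma's adjusted p = 0.729), and -0.13 under median-of-ratios scaling. The authors' deposited table gave 0.04 ± 0.17.

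Phlda3 and Trp53inp1 are direct p53 targets; Phlda3 restrains growth signalling through Akt, and Trp53inp1 promotes p53 activity in stressed cells. Phlda3 (chromosome 1, 135766119 to 135769136) had 6.64, 6.40 and 5.35 TPM in the low-Msx1 libraries of litters 1, 2 and 3, against 6.14, 4.57 and 6.48 TPM in their littermates. The low-Msx1 library was higher in litters 1 and 2 and lower in litter 3. Trp53inp1 (chromosome 4, 11156431 to 11174379) had 3.18, 4.53 and 3.96 TPM in the low-Msx1 libraries and 3.14, 3.94 and 3.82 TPM in the high-Msx1 libraries. It was the only member higher in the low-Msx1 library in 3 of 3 litters, by 0.01, 0.16 and 0.04 log2 units, and litter 3 changed sign, to -0.04, under median-of-ratios scaling. By the labels, Phlda3 differed by -0.03 ± 0.16 and Trp53inp1 by -0.06 ± 0.17 on the log2 scale (SE; limma adjusted p = 0.974 and 0.937). The sign for Phlda3 was opposite, at 0.03, under that scaling. Their fold changes in the authors' deposited table were 0.11 ± 0.53 and 0.09 ± 0.23.

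Among the direct triggers of apoptosis, only Bax and Bcl2l11 were abundant. Bax, which forms the pore in the outer mitochondrial membrane, had 60.2, 63.5 and 57.3 TPM in the low-Msx1 libraries of litters 1, 2 and 3, against 55.4, 62.4 and 61.7 TPM in their littermates (chromosome 7, 45461697 to 45466898). The libraries overlapped and litter 3 went the other way from litters 1 and 2. The labelled difference was 0.07 ± 0.08 (SE; limma adjusted p = 0.867) with a 95% interval from -0.12 to 0.25, and 0.14 under median-of-ratios scaling, and the authors' deposited table gave 0.01 ± 0.24. On the same strand Bax shares 915 bases with the annotated gene Gm45808, which was listed at 0 in every library.

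Bcl2l11, which encodes the BH3-only protein Bim, had 16.2, 16.3 and 18.8 TPM in the low-Msx1 libraries of litters 1, 2 and 3 and 18.8, 15.3 and 15.4 TPM in the high-Msx1 libraries (chromosome 2, 128126038 to 128162547). Like Ccng1 it was lower in the low-Msx1 library in litter 1 and higher in litters 2 and 3, with differences of -0.21, 0.09 and 0.28, again with the signs of the median over all tested genes. These signs also held after median-of-ratios scaling, at -0.10, 0.08 and 0.18. The 3 libraries labelled mutant, at 15.6 ± 0.488 TPM, lay below the 3 labelled control, at 18.0 ± 1.43 TPM (SD, n = 3 each). On the log2 scale this was -0.19 ± 0.10 (SE; limma's adjusted p = 0.728). The labelled groups overlapped once libraries were scaled by median of ratios, where the value was -0.12, whereas those of Ccng1 did not. The authors' deposited table gave 0.06 ± 0.16 for Bcl2l11.

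Bbc3 and Pmaip1 encode the BH3-only proteins Puma and Noxa, the main death-inducing products among p53 targets, and both were near the lower limit of the measurement. Bbc3 (chromosome 7, 16308393 to 16318205) had 1.42, 0.367 and 0.728 TPM in the low-Msx1 libraries of litters 1, 2 and 3, against 1.45, 0.731 and 1.78 TPM in their littermates. The low-Msx1 library was lower in 3 of 3 litters, but in litter 1 by only 0.02 log2 units, and that sign reversed, to 0.05, after median-of-ratios scaling. The highest and lowest libraries differed 4.86-fold. Pmaip1 had 0.254, 0.513 and 0.272 TPM in the low-Msx1 libraries and 1.00, 0.613 and 0.203 TPM in the high-Msx1 libraries, and only 1 library reached 1 TPM. Their base means in the authors' deposited table, which in DESeq2 output are averages of size-factor-scaled counts, were 8.12 and 12.3, against 308 for Cdkn1a, 702 for Bcl2l11 and 1176 for Mdm2. The fold changes there were accordingly wide, at -0.76 ± 1.19 for Bbc3 and -0.62 ± 1.00 for Pmaip1. By the labels Bbc3 differed by 0.34 ± 0.29 on the log2 scale (SE; limma adjusted p = 0.800), and by 0.66 ± 0.56 with a pseudocount of 0.1 in place of 1.

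No member was called in either comparison. The labelled comparison mixes low-Msx1 and high-Msx1 libraries within each label, so its calls and intervals are not those of low against high Msx1. limma called 0 of the 8 tested members between the labels at an adjusted p of 0.05, where 0.0% of 12152 genes were called. At an unadjusted p under 0.05 the members again numbered 0, against 6.72% of all tested genes. In the authors' deposited table, 0 of 9 members passed an adjusted p of 0.05, which 0.0961% of 14572 genes did, and 0 passed an unadjusted p of 0.05, which 1.85% of 17605 genes did. Of the members, 5 were positive and 4 negative in the authors' deposited table. Their median there was 0.01 on the log2 scale, beside 0.003 over all genes that carry an adjusted p. By litters, 2 of 9 members (Mdm2 and Bbc3) were lower in the low-Msx1 library in 3 of 3 litters, as were 11.9% of tested genes. With Trp53inp1, which was higher, 3 of 9 kept a single direction, as did 22.7% of tested genes. The 2 members whose labelled groups did not overlap, Ccng1 and Bcl2l11, were both lower in the libraries labelled mutant, like 10.4% of tested genes. With 2 of those 3 libraries high in Msx1, both genes were higher in the low-Msx1 library in 2 of 3 litters. The labelled log2 difference was negative for 6 of the 8 tested members and positive for 2, with a median of -0.05, beside a median of -0.06 over all 12152 genes. A p that misses the threshold does not show equal levels. The 95% intervals for the labelled log2 difference reached from -0.43 to 0.05 for Ccng1, from -0.42 to 0.04 for Bcl2l11, from -0.40 to 0.35 for Phlda3, from -0.45 to 0.32 for Trp53inp1, from -0.74 to 0.35 for Cdkn1a and from -0.33 to 1.00 for Bbc3, besides those of Mdm2 and Bax above.

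**Figure D3:**
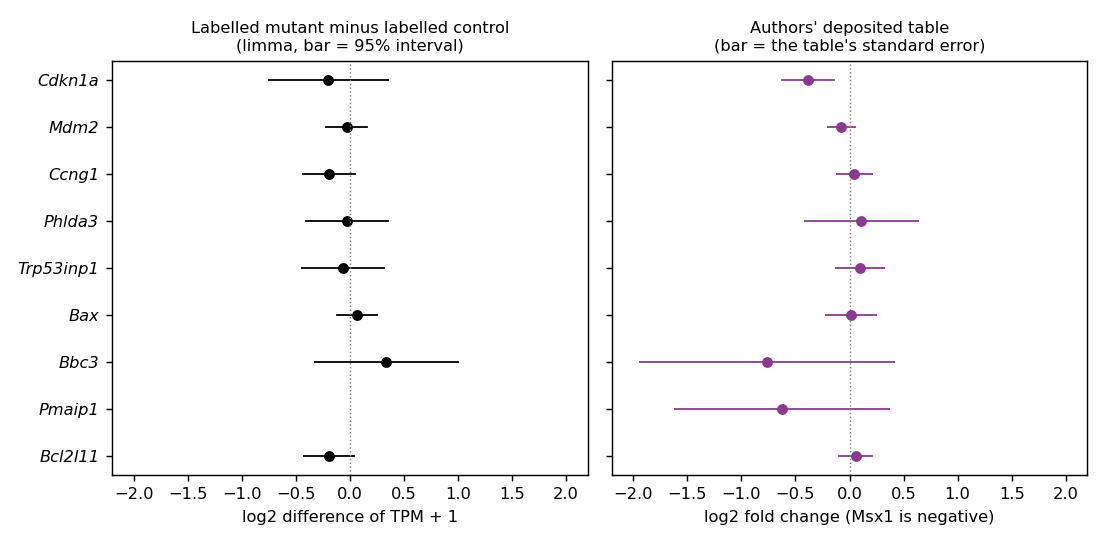
Left, log2 difference of TPM + 1 between libraries labelled mutant and labelled control for the 8 tested members, with the 95% interval from limma; Pmaip1 was not tested. Right, log2 fold change of all 9 members in the authors' deposited table with the table's standard error, where Msx1 is negative. Bars of all members in the left panel cross 0, and in the right panel only that of Cdkn1a, at -0.39 ± 0.25, does not. A standard error is narrower than a 95% interval, so crossing 0 does not mean the same in both panels. Cdkn1a did not pass the table's threshold.

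Among the genes upstream of the members, Trp53, which encodes p53, had 205, 214 and 237 TPM in the low-Msx1 libraries of litters 1, 2 and 3, against 241, 212 and 198 TPM in their littermates. Its fold change in the authors' deposited table was 0.01 ± 0.12, and littermates changed order between litters 1 and 3. Mdm4, the second brake on p53, had 43.8, 34.7 and 40.5 TPM in the low-Msx1 libraries and 46.5, 46.9 and 46.7 TPM in the high-Msx1 libraries. All 3 low-Msx1 values lay below all 3 high-Msx1 values, as for 4.95% of tested genes, and the authors' deposited table gave -0.24 ± 0.13 (unadjusted p = 0.0537). Usp7, a deubiquitinase that acts on Mdm2 and p53, had 29.0, 31.7 and 36.3 TPM in the low-Msx1 libraries and 26.6, 29.0 and 24.1 TPM in the high-Msx1 libraries. Its fold change in the authors' deposited table was 0.28 ± 0.14 (unadjusted p = 0.0425). Trp53bp1, a DNA damage response gene, was at -0.20 ± 0.11 there. Cdkn2a, whose Arf product blocks Mdm2, was listed at 0 in every library. Of 21 genes of p53 and its regulators, 20 were adjusted for in the authors' deposited table, 11 positive and 9 negative, and 0 passed. limma called 0 of the 19 tested between the labels.

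Other p53 targets gave no common direction. Of 38 listed genes found in the files, 37 were adjusted for in the authors' deposited table, 19 positive and 18 negative, at a median of 0.004 and with 0 past the threshold. limma called 0 of 35 between the labels, of which 2 had an unadjusted p under 0.05. The smallest p in the authors' deposited table among targets that averaged 1 TPM or more belonged to Gadd45a, a DNA damage and stress gene, at 1.08 ± 0.59 (unadjusted p = 0.0661). Its levels were 6.44, 6.84 and 7.09 TPM in the low-Msx1 libraries of litters 1, 2 and 3 and 2.73, 2.10 and 5.54 TPM in the high-Msx1 libraries. The 3 low-Msx1 values lay above the other 3, as for 4.36% of tested genes. Perp, a p53 target that is also a desmosome component of epithelia, had 14.9, 18.0 and 15.1 TPM in the low-Msx1 libraries and 13.7, 12.4 and 10.1 TPM in their littermates, again without overlap, and 0.41 ± 0.24 in the authors' deposited table. The 13 epithelial markers summed to 169, 179 and 194 TPM in the low-Msx1 libraries and 196, 172 and 185 TPM in the high-Msx1 libraries, and their part in the values of Perp was not tested. Sulf2, a heparan sulfate sulfatase gene, came next by p, at 0.15 ± 0.12. Gadd45a and Perp were named for a small p that rests on the same libraries, so their lack of overlap is no separate support.

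**Figure D4:**
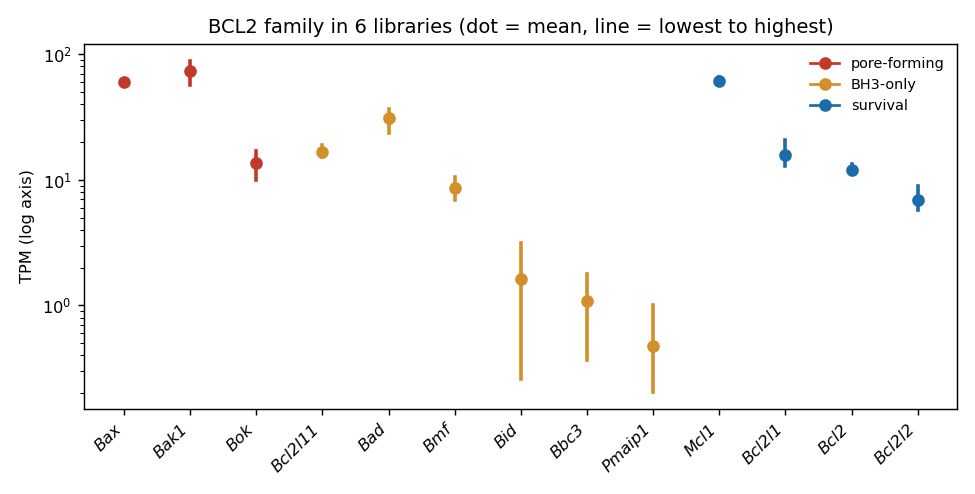
Mean TPM (dot) and the lowest to highest of 6 libraries (line) for 13 genes of the BCL2 family on a log axis, coloured as pore-forming, BH3-only and survival genes. Bax and Mcl1, at means of 60.1 and 61.1 TPM, are among the highest and the steadiest, whereas Bbc3 and Pmaip1 have the lowest means of the 13; Bik, Hrk, Bnip3, Bnip3l, Bcl2l10, Bcl2a1b and Bcl2a1d are not drawn.

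The BCL2 family around Bax was dominated by Bax, Bak1 and Mcl1. Bak1, the second pore-former, had a mean of 74.1 TPM, and Mcl1, a short-lived survival protein gene, 61.1 TPM. The BH3-only gene Bad had 31.1 TPM, so that Bad and Bcl2l11 made up most of the sum over Bbc3, Pmaip1, Bcl2l11, Bid, Bad, Bmf, Bik and Hrk, which was 60.7 ± 3.14 TPM (SD, n = 6). Bnip3 and Bnip3l, atypical members at means of 29.5 and 38.4 TPM, are not in that sum. Bax and Bak1 together summed to 134 ± 12.1 TPM and the survival genes Bcl2, Bcl2l1, Bcl2l2 and Mcl1 to 95.9 ± 4.47 TPM (SD, n = 6). The ratio of these sums was 1.18, 1.66 and 1.51 in the low-Msx1 libraries of litters 1, 2 and 3 and 1.35, 1.36 and 1.37 in the high-Msx1 libraries. It was below that of the littermate in litter 1 and above it in litters 2 and 3. By the labels it was lower in the mutant-labelled littermate in 3 of 3 litters, but how often other ratios do so was not counted. Bak1 ranged from 56.5 to 89.1 TPM over the libraries and Bax from 55.4 to 63.5 TPM. The mean of Bax alone was higher in libraries labelled mutant, at 61.5 against 58.7 TPM. Among 9 other death-promoting members of the family, 8 were adjusted for in the authors' deposited table, 6 positive and 2 negative, and 0 passed. Those with the smallest p were Bnip3, a mitophagy gene induced in hypoxia, at -0.44 ± 0.24, Bok at 0.23 ± 0.37 and Bad at 0.18 ± 0.32. Of 7 survival genes, 4 were adjusted for there, 2 positive and 2 negative, with Bcl2l2 at -0.31 ± 0.29, Mcl1 at -0.07 ± 0.12 and Bcl2 at 0.04 ± 0.15. limma called 0 of 7 and 0 of 4 tested genes in these lists at an adjusted p of 0.05. At an unadjusted p under 0.05 they numbered 2 and 0, against 6.72% of all tested genes. The 2 were Bok, at -0.49 ± 0.12 on the log2 scale (SE; limma adjusted p = 0.669), and Bak1, at -0.37 ± 0.11 (SE; limma adjusted p = 0.686), both lower in the libraries labelled mutant.

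Caspase and apoptosome genes, counted here with death receptor pathway genes such as Fadd, were expressed in each library. Of 18 caspase and apoptosome genes, 12 were positive and 6 negative in the authors' deposited table, at a median of 0.08 and with 0 past the threshold, where 7388 of all genes were positive and 7184 negative. Between the labels 4 were positive and 14 negative, at a median of -0.14, beside 4205 and 7947 of all tested genes. The smallest p in the authors' deposited table belonged to Htra2, Diablo and Fadd. Htra2 and Diablo encode mitochondrial proteins that neutralise caspase inhibitors, and were at 0.42 ± 0.28 and 0.21 ± 0.19 there, while the death receptor adaptor gene Fadd was at 0.19 ± 0.19. Diablo had 29.3, 31.4 and 32.2 TPM in the low-Msx1 libraries and 26.4, 27.0 and 27.1 TPM in their littermates. The low-Msx1 values of Diablo lay above the other 3 without overlap, as did those of Htra2, Perp and Usp7, and those of 4.36% of tested genes. For Usp7 the nearest values on either side both round to 29.0 TPM. Diablo, Htra2, Perp and Usp7 were named for a small p in the authors' deposited table. That p rests on the same libraries, so their lack of overlap is no separate support. Of 6 caspase inhibitor genes, 5 were negative and 1 positive, with a median of -0.09, Cflar at -0.28 ± 0.18, Xiap at -0.20 ± 0.16 and Birc3 at -0.12 ± 0.23 in the authors' deposited table, again with 0 past the threshold. limma called 0 of 18 and 0 of 6 of these genes between the labels, and 1 and 0 had an unadjusted p under 0.05. Of the 88 other pathway genes tested by limma, 9 were lower in the low-Msx1 library in 3 of 3 litters and 10 higher, against 1443 and 1314 of all 12152 tested genes.

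**Figure D5:**
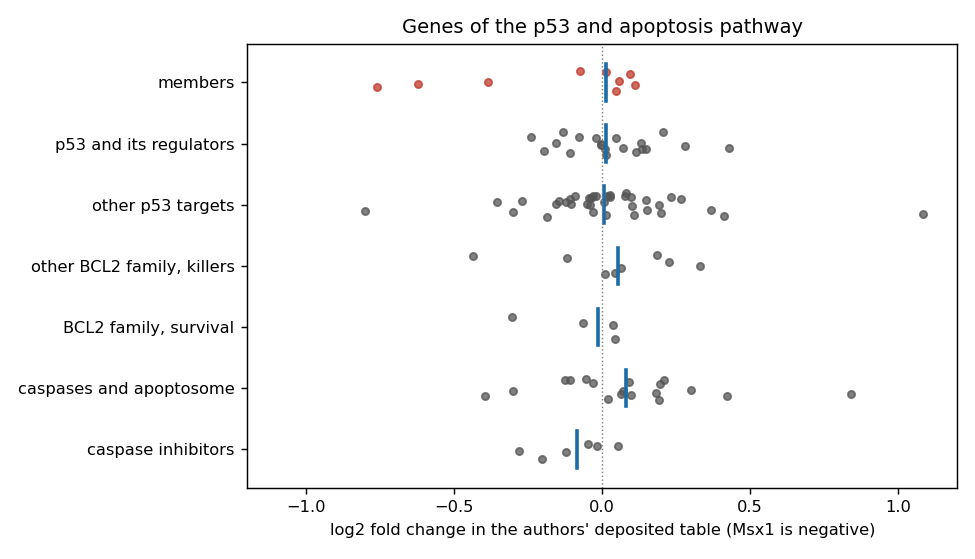
Log2 fold change in the authors' deposited table (Msx1 is negative) of each gene with an adjusted p, for the 9 members (red) and 6 lists of other pathway genes (grey), with the list median as a blue bar. Medians lie between -0.09 for caspase inhibitors and 0.08 for caspases and apoptosome genes, and no point passed the table's threshold.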

How the data were processed

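The members and pathway lists were chosen with earlier results of these data known. Each library has 1 deposited file of TPM per gene. Per the submitters' processing notes, mm10 was the build and Salmon (version 1.5.2) and DESeq2 were used, with no settings. The annotation release and strand handling are not stated there. The listed TPM sum to 716208 to 735601 per library, and depth per library is unknown, so that precision is judged from the spread between embryos. The authors' deposited table gives, per the file headers, a base mean (a signal scaled across libraries), a log2 fold change with its standard error, a Wald score, and unadjusted and adjusted p-values, without naming its direction or model.

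All genes that reached 1 TPM in 3 or more libraries were fitted on log2(TPM + 1) with limma 3.58.1 in R 4.3.3 (variance trend, robust moderation), labelled mutant minus labelled control, with Benjamini-Hochberg adjustment over all 12152 genes. This scale understates changes of low genes. The script was tested on simulated data. Litter numbers in the labels pair the libraries; deviations of littermates from their label means correlated at -0.055, -0.028 and -0.026. The main fit has no litter term, since the study's model is not stated; litter as a block was an alternative, as were another pseudocount, other filters, median-of-ratios scaling, plain moderation and each library left out. Genes named outside the members were Trp53, Mdm4, the 3 with the smallest p per list in the authors' table that averaged 1 TPM or more, and the 3 nearest profiles to Cdkn1a and Mdm2; Msx1 checks the labels, and Bak1, Cdkn2a, the tissue markers and other single genes were named after their values were seen. Gene positions are those of GENCODE on GRCm38, and promoters those of RefSeq.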

Additional observations from a re-analysis of the deposited data

How the results depend on the processing

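The count of 0 members called between the labels was the same with a pseudocount of 0.1, without a filter (9 members tested), with a mean of at least 5 TPM (6 tested), with median-of-ratios scaling, with plain moderation, with litter as replicate block (0 members, 770 genes at an unadjusted p under 0.05) and without each library in turn (0 in each). The replicate block changed no call of a member. The count of 0 members past the threshold in the authors' deposited table was also 0 at an adjusted p under 0.1 and at an unadjusted p under 0.05. Median-of-ratios scaling left 1 member (Mdm2) lower and 0 higher in the low-Msx1 library in 3 of 3 litters. Leaving out each litter in turn gave 2 to 3 members lower and 1 to 3 higher in the 2 litters left; without litter 1 or litter 3 the count higher was 3. Of the labelled log2 differences, that scaling reversed Mdm2 (0.040) and Phlda3 (0.035). Leaving out each library gave ranges from -0.062 to 0.0056 for Mdm2, -0.18 to 0.032 for Trp53inp1 and -0.11 to 0.12 for Phlda3, which cross 0, from -0.47 to -0.02 for Cdkn1a, from 0.14 to 0.56 for Bbc3 and from 0.026 to 0.12 for Bax. The cause was not tested. With 3 libraries per label and no read counts, small changes of the members cannot be resolved.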
